A study of Homo sapiens with 6 samples.

Results

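Desmosomes are the spot-like junctions that tie the keratin filaments of neighbouring epithelial cells together. In their extracellular part, cadherins of the desmoglein and desmocollin families meet across the cell gap. On the inner side, plakoglobin and the plakophilins bind the cadherin tails, and desmoplakin links that plaque to keratin; PERP is a membrane protein of the same junction. The desmosome genes examined here are 10 in number: the cadherins DSG2, DSC2 and DSC3, the plaque proteins JUP (plakoglobin), PKP1, PKP2, PKP3 and PKP4, the cytolinker DSP (desmoplakin) and PERP. They were taken by name, with every probe set that the array's annotation pairs with that gene alone, which gave 27 of 54675 probe sets and 10 of 19775 genes. The set was chosen by results of the same comparison, in which DSP and DSC2 had already been seen to fall. The values of the 10 genes are therefore given as a description, without p-values, and support nothing by themselves.

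The arrays measured gene expression in SW480, an established human colon adenocarcinoma line. Control cells received a non-targeting short hairpin RNA (shRNA; 3 arrays) and knockdown cells an shRNA against gankyrin, the proteasome assembly chaperone encoded by PSMD10 (3 arrays), for 4 days per the sample titles. No other treatment is named, and all 6 arrays share the same line, so every value below belongs to 1 line. The labels do not say whether replicates were separate cultures, so spreads and p-values cover only the variation between these arrays, which may be technical. Values are log2 probe set signals. Where 3 values are given for a group they stand in the order of replicates 1 to 3. A gene is represented by its brightest probe set, and a gene is said to have risen or fallen only where limma gave a Benjamini-Hochberg adjusted p under 0.05 over all 14199 genes past a low-signal filter (mean signal of 3.6 or more).

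The targeted gene followed its labels on every array. PSMD10 stood at 10.19, 10.23 and 10.15 on the control arrays against 6.58, 6.47 and 6.30 on the knockdown arrays (13.4-fold lower, limma adjusted p = 6.81e-09; exact two-sided permutation p = 0.1, the smallest that 3 against 3 arrays allow). A sentence of the series design names NFIL3 instead; NFIL3 changed by -0.26 ± 0.07 SE (limma adjusted p = 0.0281), a call lost without control replicate 2 or any 1 knockdown array. Epithelial markers were present: all 9 of a colon epithelial list passed the filter, with EPCAM at a mean of 12.20, KRT8 at 11.05, KRT18 at 13.02 and CDX2, near the filter, at 4.16. Of these 9, 3 fell and 1 rose, and their summed signal was 83.03 to 83.72 on control and 81.85 to 82.57 on knockdown arrays. Of the fibroblast markers 4 of 7 passed the filter, of the endothelial 2 of 5 and of the keratinocyte 3 of 7. Of the leukocyte markers 3 of 4 measured passed it, and of the cardiac muscle markers 2 of 4 measured. Of the markers of these other cell types past the filter limma called 0 (0 also at an unadjusted p under 0.05), and those under it were not tested. LYZ (12.29), KRT10 (10.18) and COL1A1 (7.12) were the highest of them. The summed fibroblast signal was 28.80 to 28.90 in control and 29.21 to 29.65 in knockdown arrays, while PTPRC, CDH5, KDR and KRT14 were under the filter. The part of either shift in the results on desmosome genes was not tested.

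Control replicate 3 stood apart from the other 5 arrays. It was lower than all 5 others by more than 0.5 on 1860 probe sets past the filter (5.68%), against 4 to 33 probe sets for any other array, and higher by as much on 573. Control probe sets for the 3′ and 5′ ends of ACTB differed by 1.82 on this array and by 0.43 to 0.53 on the others. For GAPDH that difference was 0.56 against -0.11 to 0.00. Results on desmosome genes are therefore given with and without this array wherever it moves them; the part of end-dependent signal in them was not tested.

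After gankyrin knockdown the cadherin DSC2 and the cytolinker DSP fell by nearly the same amount, and the cadherin DSG2 fell less. The plaque genes JUP, PKP1, PKP2, PKP3 and PKP4 and the membrane gene PERP did not pass, and DSC3 stayed under the low-signal filter on all 3 of its probe sets. In counts, 9 of the 10 genes passed the low-signal filter, limma called 3 of these lower and 0 higher (0 higher also at an unadjusted p under 0.05). Over all genes tested, 22.5% were called, 14.3% lower and 8.13% higher. All knockdown values lay below all control values for 4 genes, the 3 called and PERP, and above them for 0, beside 24.6% and 15.7% of all genes. Because the genes were chosen with this comparison known, nothing is read from these shares. Of all called genes 36.2% were higher, and 47.5% when each array was centred on the median of its probe sets past the filter. The median log2 difference of the 9 was -0.12, beside -0.02 over all genes. RNA from a whole culture cannot tell fewer cells expressing a gene from less RNA per cell.

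**Figure D1:**
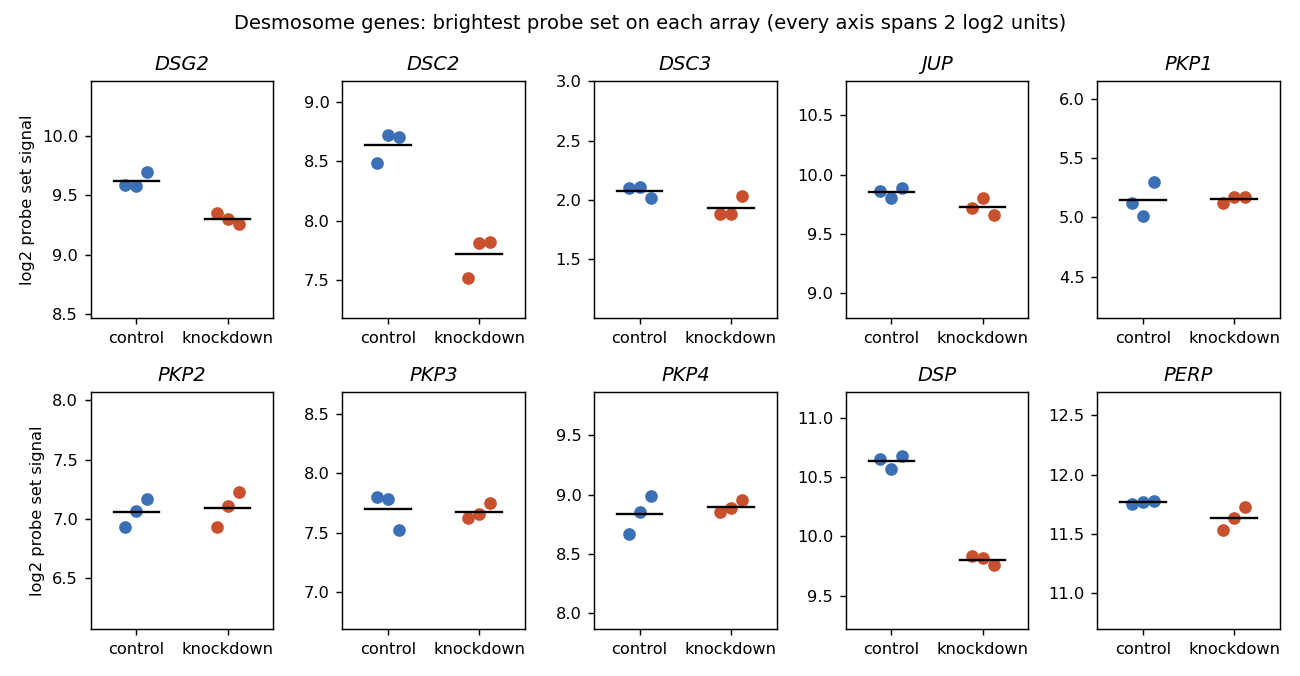
Log2 signal of the brightest probe set of each desmosome gene on the 3 control arrays (blue) and 3 knockdown arrays (orange); black lines are group means, and every vertical axis spans 2 log2 units around the gene's own mean. The control and knockdown points are far apart for DSC2 and DSP and closer but still separate for DSG2, and they overlap for JUP and the 4 plakophilins; DSC3 lies near 2, below the filter of 3.6.

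Desmoplakin is the obligate link between the plaque and keratin filaments. DSP stood at 10.65, 10.57 and 10.68 on the control arrays against 9.83, 9.82 and 9.76 on the knockdown arrays. Every knockdown array lay below every control array, and the gap was wider than the spread inside either group. The mean went from 10.63 ± 0.06 to 9.80 ± 0.04 (SD, n = 3 each), a log2 difference of -0.83 ± 0.05 SE or 1.78-fold; 151 of the 14199 genes had a more negative difference. DSP has a single probe set here, so no second measure of it exists on these arrays. Without control replicate 3 the difference was -0.81.

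Desmocollin 2 is the desmocollin of simple epithelia such as the colon. On its brightest probe set DSC2 gave 8.49, 8.72 and 8.71 in control and 7.52, 7.81 and 7.82 in knockdown replicates 1 to 3. The groups did not overlap, and within each group replicate 1 was the lowest. The difference was -0.92 ± 0.10 SE, from 8.64 ± 0.13 to 7.72 ± 0.17 (SD, n = 3 each), or 1.90-fold, and -0.89 without control replicate 3. The 3 dimmer DSC2 probe sets lay lower on every knockdown array too, at -0.62 (204751_x_at), -0.87 (204750_s_at) and -1.38 (231033_at). The last of these went from 4.43, 4.19 and 4.55 to 3.05, 2.89 and 3.08, which is under the filter value, so the size of that step is uncertain. Control replicate 3 moved 2 of the 4 probe sets in opposite directions: it read 6.25 on 204751_x_at beside 6.92 and 7.14 on the other controls, and 7.18 on 204750_s_at beside 6.32 and 6.48. Without it the pair stood at -0.88 and -0.61, so all 4 DSC2 probe sets still pointed down. Of these 4 probe sets 3 passed in a fit over all 32773 probe sets past the filter; 204751_x_at missed with all arrays, and without control replicate 3 it passed, while 231033_at, at -1.30, had a mean under the filter and was not tested.

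Desmoglein 2 is the desmoglein of simple epithelia. On its brightest probe set DSG2 gave 9.59, 9.58 and 9.70 in control and 9.35, 9.30 and 9.26 in knockdown replicates 1 to 3. The groups were separate, with a gap wider than the spread inside either. The difference was -0.32 ± 0.06 SE (1.25-fold), with a 95% interval of -0.45 to -0.19, and -0.28 without control replicate 3. The second DSG2 probe set (1553105_s_at) gave 8.0, 8.03 and 7.14 in control and 7.70, 7.91 and 7.86 in knockdown replicates. Its difference was 0.10 with all arrays and -0.19 without control replicate 3, the array that read low. When both probe sets were averaged, DSG2 stood at -0.11 and no longer passed. In the fit over all probe sets, the call on its brightest probe set was lost without any 1 knockdown array.

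For the 3 genes that fell, the 250 bases before a RefSeq start site are printed, with JUP, which did not pass, for comparison. DSC2 and JUP have 2 windows each, and the printed 1 is that with the motif marked below. No window of another member holds the motif, so the printed windows do not stand for the rest. Capitals mark the E-box CAGGTG on either strand (CACCTG when read on the opposite one), the motif that SNAI and ZEB repressors are known to bind in epithelial junction genes. Sequences are from RefSeq on GRCh38.p14 and run 5′ to 3′ on the gene's strand. They lie at chr6:7541421-7541670 (plus strand) for DSP, chr18:31102422-31102671 (minus) for the upstream of 2 DSC2 starts, chr18:31497927-31498176 (plus) for DSG2 and chr17:41785977-41786226 (minus) for 1 of 2 JUP starts.
DSP: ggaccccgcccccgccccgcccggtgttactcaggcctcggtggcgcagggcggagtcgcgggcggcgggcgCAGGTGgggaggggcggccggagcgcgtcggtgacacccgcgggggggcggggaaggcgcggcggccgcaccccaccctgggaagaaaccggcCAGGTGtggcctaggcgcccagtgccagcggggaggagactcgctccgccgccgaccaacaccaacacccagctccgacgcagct
DSC2: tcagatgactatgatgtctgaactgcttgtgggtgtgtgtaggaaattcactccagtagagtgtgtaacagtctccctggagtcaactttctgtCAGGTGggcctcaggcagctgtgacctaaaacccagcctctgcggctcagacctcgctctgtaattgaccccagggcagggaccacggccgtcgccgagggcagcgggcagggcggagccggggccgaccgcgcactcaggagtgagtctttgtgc
DSG2: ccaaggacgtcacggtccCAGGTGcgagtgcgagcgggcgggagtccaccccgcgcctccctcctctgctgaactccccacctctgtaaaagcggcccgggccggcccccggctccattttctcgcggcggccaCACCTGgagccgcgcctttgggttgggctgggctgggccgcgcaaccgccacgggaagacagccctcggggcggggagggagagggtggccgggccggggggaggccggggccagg
JUP: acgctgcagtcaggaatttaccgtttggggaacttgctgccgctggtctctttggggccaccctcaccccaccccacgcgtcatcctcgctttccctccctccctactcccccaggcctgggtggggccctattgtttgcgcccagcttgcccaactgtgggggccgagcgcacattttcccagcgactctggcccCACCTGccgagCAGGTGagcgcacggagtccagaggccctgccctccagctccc

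In these windows the E-box begins 178 and 85 bases before the DSP start, 156 before the upstream DSC2 start, 232 and 116 before the DSG2 start, and 54 and 43 before the JUP start. RefSeq windows were found for 8 of the 10 genes, 11 windows in all, with no entry used for PKP2 and PKP3. The motif was in 4 of the 11 windows, those printed, and in 17.5% of all 35116 RefSeq windows of the same length. It was absent from the other DSC2 and JUP windows and from those of DSC3, PKP1, PKP4 and PERP. The GC box GGGCGG was in 9 of the 11 windows and in 42.6% of all windows. CCAAT was in 3 (32% of all windows), the AP-1 motif TGANTCA in 1, that of PERP (6.57%), and TATAAA (10.7%) and the GRHL core ACCGGT (1.45%) in 0. Both strands were searched for each. Members' windows were 59.6% to 78.0% G or C, with a median of 58.0% over all windows. A match in the letters is a description of the sequence and shows neither binding nor a cause.

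None of the plaque genes passed. JUP, which encodes plakoglobin, the armadillo protein that joins both desmosomal cadherins to desmoplakin, gave 9.86, 9.80 and 9.89 in control and 9.72, 9.80 and 9.66 in knockdown arrays. Knockdown replicate 2 equalled control replicate 2, so the groups touched. The difference was -0.12 ± 0.06 SE, with a 95% interval of -0.25 to 0.00. Without control replicate 3 it was -0.10.

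The plakophilins are armadillo proteins that cluster desmosomal cadherins and recruit desmoplakin. On its brightest probe set PKP2, which is found in simple epithelia and heart, gave 6.93, 7.07 and 7.17 in control and 6.93, 7.11 and 7.23 in knockdown arrays, a difference of 0.03 ± 0.10 SE (95% interval -0.19 to 0.26). PKP3 gave 7.80, 7.78 and 7.52 against 7.62, 7.66 and 7.75, a difference of -0.02 ± 0.09 SE (-0.23 to 0.18). PKP4, also called p0071 and known from both desmosomes and adherens junctions, gave 8.67, 8.85 and 8.99 against 8.85, 8.89 and 8.95, a difference of 0.06 ± 0.08 SE (-0.12 to 0.24). In each of these the ranges overlapped. Without control replicate 3 the differences were 0.09 for PKP2, -0.11 for PKP3 and 0.14 for PKP4. PKP1, mainly a plakophilin of stratified epithelium, was low on its brightest probe set, at 5.12, 5.01 and 5.30 against 5.12, 5.17 and 5.17. That is a difference of 0.01 ± 0.10 SE (-0.22 to 0.24), and 0.09 without control replicate 3.

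Second probe sets of 3 plakophilins had higher means after knockdown, and 1 array set the size of each step. PKP2 on 214154_s_at gave 4.85, 4.95 and 3.15 in control and 4.94, 5.02 and 5.0 in knockdown arrays, a difference of 0.67. PKP3 on 209872_s_at gave 5.88, 5.94 and 4.65 against 5.94, 6.01 and 6.02, a difference of 0.50. PKP4 on 201927_s_at gave 7.56, 7.59 and 6.64 against 7.68, 7.64 and 7.61, a difference of 0.38. In all 3 the low reading was control replicate 3, at -1.75, -1.26 and -0.94 from the mean of the other controls. Without that array the differences were 0.09, 0.08 and 0.07. For PKP4 on that probe set all 3 knockdown values still lay above all controls. The remaining PKP4 probe sets stood at -0.22, -0.21 and 0.01, and none of the 10 plakophilin probe sets past the filter passed.

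**Figure D2:**
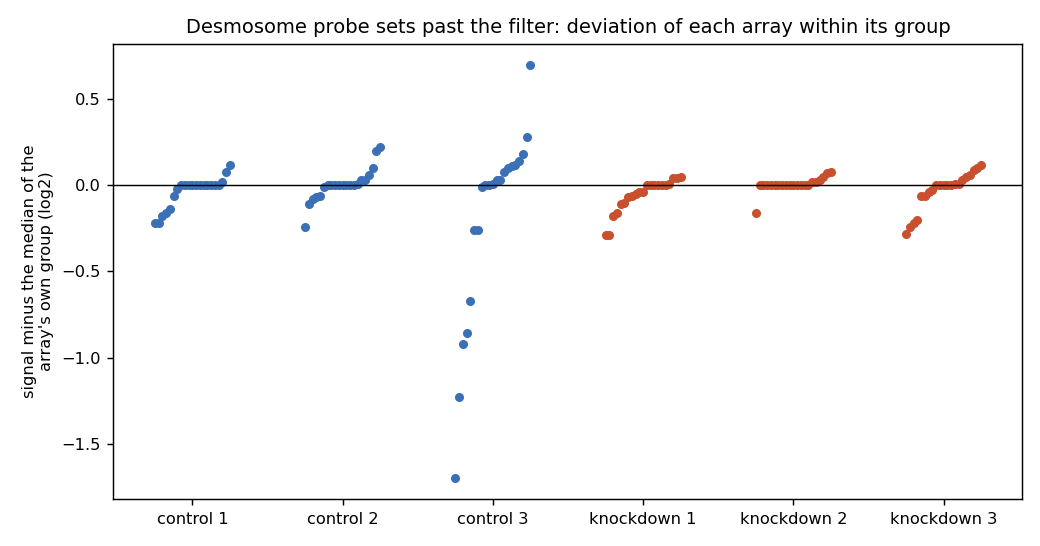
Log2 signal of the 21 desmosome probe sets past the filter on each array, minus the median of that array's own group, sorted within each array; points at 0 are the array that holds the median. Control replicate 3 carries the only points beyond 0.5 in either direction, 5 low and 1 high.

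PERP is a tetraspan protein needed for stable desmosomes. On its brightest probe set PERP gave 11.75, 11.77 and 11.78 in control and 11.53, 11.63 and 11.73 in knockdown arrays. The groups did not overlap, although knockdown replicate 3 lay just under the lowest control. The difference was -0.14 ± 0.05 SE (95% interval -0.25 to -0.02), which missed the threshold over all genes and passed it when knockdown replicate 3 was left out (-0.19). Without control replicate 3 it was -0.13. Its dimmer probe sets past the filter stood at -0.10 (217744_s_at) and -0.26 (236009_at), and without control replicate 3 at -0.22 and -0.16. The other 2 PERP probe sets were under the filter.

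At the level of probe sets, 21 of the 27 passed the filter, 5 of these fell and 0 rose, where 6.53% of all probe sets fell and 4.05% rose. Those that fell were 3 of DSC2, 1 of DSG2 and 1 of DSP. Of the DSC2 probe sets 231033_at passed the filter through its control arrays alone, with means of 4.39 in control and 3.01 in knockdown arrays. Nothing is read from its call. Without control replicate 3 the count was again 5, and without control replicate 2 or any 1 knockdown array it was 3. Values of the groups did not overlap on 8 of the 21 probe sets in the lower direction and on 1 in the higher, beside 20% and 15.5% of all probe sets. Probe sets of 1 gene share its transcripts and are not independent measures.

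**Figure D3:**
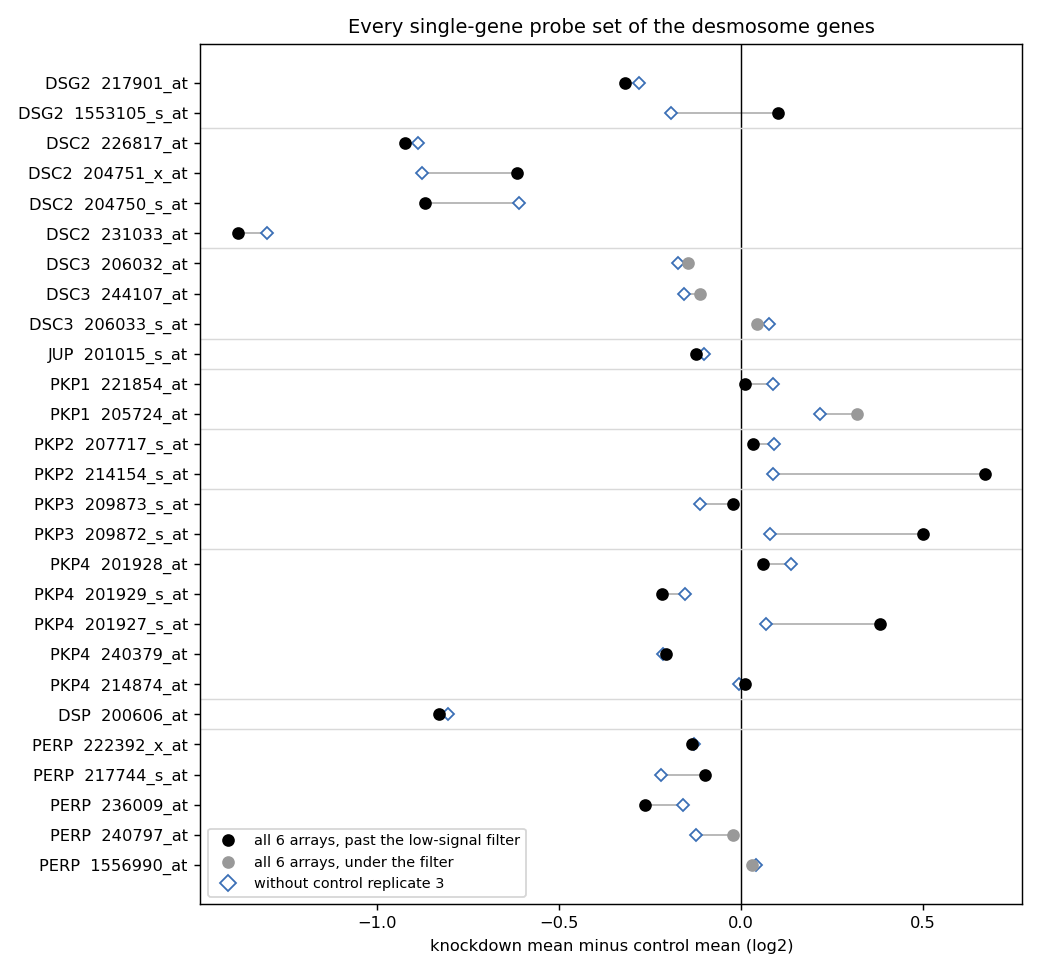
Knockdown mean minus control mean (log2) for each of the 27 desmosome probe sets, with all 6 arrays (black past the filter, grey under it) and without control replicate 3 (blue diamonds). The 4 DSC2 probe sets and DSP lie at -0.61 or below under both, while the high points of PKP2, PKP3 and PKP4 move to between 0.07 and 0.09 once that array is left out.

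The desmosomal cadherin genes stand side by side on human chromosome 18, in the RefSeq order DSC3, DSC2, DSC1, DSG1, DSG4, DSG3 and DSG2. In SW480 cells only DSC2 and DSG2 of these 7 passed the low-signal filter. The 3 DSC3 probe sets stayed between 1.75 and 2.11 on all arrays. DSC1 lay between 1.98 and 2.15, DSG1 between 1.81 and 2.21, DSG4 between 1.99 and 2.30, and DSG3 between 1.66 and 3.02. These are the desmogleins and desmocollins of stratified epithelium, along with corneodesmosin CDSN, which passed on 1 of 2 probe sets with means of 4.72 ± 0.14 before and 4.76 ± 0.19 after knockdown (SD, 3 arrays each; limma adjusted p = 0.881). Beyond the cluster, the next gene TTR was at 0.09 ± 0.10 SE (adjusted p = 0.579), and B4GALT6 after it fell by 0.54 on the log2 scale (limma adjusted p = 0.00286).

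Genes that work beside the desmosome were counted in lists of standard members. The lists were chosen with earlier results of these data known. Their counts and p-values, here and below, are therefore a description and no independent support for the desmosome values. As the background, 14.3% of all genes were called lower and 8.13% higher. Of all gene differences 54.3% lay below 0, with a median of -0.02. Of 6 plakins and other cytolinkers, the family of desmoplakin, 4 fell, and all 6 differences lay below 0, with a median of -0.41. PPL (periplakin, a plakin of desmosomal plaques and keratin) gave 9.02, 9.28 and 9.43 in control and 8.31, 8.38 and 8.25 in knockdown arrays. It fell by 0.93 on the log2 scale (limma adjusted p = 0.000212), an amount near that of DSP. MACF1, which links actin and microtubules, fell by 0.59 (adjusted p = 0.000116), DST (dystonin) by 0.39 (adjusted p = 0.00436) and PLEC (plectin) by 0.27 (adjusted p = 0.0366). PPL has 1 probe set. MACF1 passed on 4 of 7 probe sets and DST on 2 of 7, and on the brightest probe set with neither an _x_at nor an _s_at ending MACF1 stood at 0.10 and DST at 0.27. The other 2 DST probe sets of that kind stood at -0.12 and -0.59 and did not pass, and with all 7 averaged DST was at -0.16 (limma adjusted p = 0.127). The PLEC call was lost under 8 of 16 alternatives, among them without control replicate 2 or any 1 knockdown array, and with its 2 probe sets averaged PLEC stood at 0.05.

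Adherens junctions are the actin-linked junctions beside desmosomes. Of 13 measured genes 3 fell and 1 rose, with a median of -0.09. The classical cadherin CDH1 (E-cadherin) gave 7.16, 7.21 and 7.39 in control and 6.63, 6.63 and 6.57 in knockdown arrays. It fell by 0.64 on the log2 scale (limma adjusted p = 0.000863). CDH3 (P-cadherin) fell by 0.76 (adjusted p = 0.0103), a call lost without knockdown replicate 3 (adjusted p = 0.0541). Without control replicate 3 CDH3 stood at -0.55. The nectin NECTIN2 fell by 0.32 (adjusted p = 0.0109). That call was lost without knockdown replicate 2 or 3 and with its 4 probe sets averaged (-0.15, adjusted p = 0.169). NECTIN3 rose by 0.48 (adjusted p = 0.00249). Without knockdown replicate 3 only CDH1 of the list fell, and without control replicate 1 or 3 there were 4 falls.

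Keratins are the filaments to which desmosomes attach. Of 11 intermediate filament genes past the filter 5 fell and 1 rose, with a median of -0.12. A further 2 were measured but under the filter. KRT20, a keratin of differentiated intestinal cells, gave 10.68, 10.75 and 10.76 in control and 9.97, 10.19 and 10.06 in knockdown arrays (log2 difference -0.66 ± 0.06 SE, limma adjusted p = 0.000106). KRT80 was at -0.98 ± 0.17 SE (adjusted p = 0.00309) and KRT19 at -0.46 ± 0.07 SE (adjusted p = 0.00111). Without control replicate 3 KRT80 stood at -0.76. KRT23 moved the other way, from 4.92, 5.29 and 5.45 to 6.37, 6.39 and 6.21, a rise of 1.10 ± 0.13 SE (adjusted p = 0.00049). The main pair of simple epithelial keratins, KRT8 and KRT18, named here after their values were seen, stood at -0.12 (adjusted p = 0.131) and -0.06 (adjusted p = 0.353).

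Hemidesmosomes anchor keratin to the basement membrane. Of 4 measured genes 3 fell, and all 4 differences on the brightest probe sets lay below 0, with a median of -0.26. Over all genes 54.3% lay below 0. The dimmer probe sets of ITGB4, named here after its values were seen, stood at 0.52, 1.03 and -0.05. The dimmer ITGA6 probe set stood at 0.11, and none of these passed. The laminin chain LAMB3 was at -0.84 ± 0.10 SE (limma adjusted p = 0.000527) and the tetraspanin CD151 at -0.29 ± 0.05 SE (adjusted p = 0.00419). The integrin subunit ITGA6, at -0.22 ± 0.06 SE (adjusted p = 0.0207), lost its call without control replicate 2, without knockdown replicate 1 or 3, with no intensity trend (adjusted p = 0.0671) and with its 2 probe sets averaged (-0.055, adjusted p = 0.826).

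Of 24 genes that act on desmosome assembly and turnover, 7 fell and 1 rose, with a median of -0.12. There were 3 falls without knockdown replicate 2 or 3, 8 without control replicate 3, and no fall passed in limma with probe sets averaged. The membrane protease ADAM9 gave 10.84, 10.83 and 10.81 in control and 9.81, 10.11 and 10.06 in knockdown arrays (-0.83 ± 0.07 SE, limma adjusted p = 7.18e-05). The kinase ROCK2 was at -0.43 ± 0.05 SE (adjusted p = 0.000362) and caveolin CAV1 at -0.48 ± 0.10 SE (adjusted p = 0.00952). The endocytic adaptor DAB2 rose by 0.48 ± 0.07 SE (adjusted p = 0.00163). With probe sets averaged ADAM9 was at -0.63 (adjusted p = 0.0601), ROCK2 at -0.19 (adjusted p = 0.282) and CAV1 at -0.27 (adjusted p = 0.0523).

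Among 13 transcription factors past the filter that are known from epithelial junction genes, 3 fell and 1 rose, with a median of -0.08. A further 6 were measured but under the filter. The grainyhead factors GRHL1 and GRHL2, both known for control of epithelial junction genes, moved in opposite directions. GRHL1 gave 7.63, 7.71 and 7.73 in control and 6.92, 7.14 and 7.16 in knockdown arrays (-0.62 ± 0.09 SE, limma adjusted p = 0.0011; -0.37 with adjusted p = 0.129 for the average of its 2 probe sets). GRHL2 gave 7.38, 7.43 and 7.45 against 7.70, 7.92 and 7.94 (0.43 ± 0.08 SE, adjusted p = 0.00526). The epithelial factor ELF3 was at -0.43 ± 0.08 SE (adjusted p = 0.00501) and OVOL1 at -0.39 ± 0.10 SE (adjusted p = 0.0171). The ELF3 call was lost on the brighter of its 2 probe sets without an _s_at ending (-0.23), while the dimmer stood at -0.46 and did not pass in the fit over probe sets (adjusted p = 0.0689). The OVOL1 call was lost without control replicate 2 or any 1 knockdown array, and with its 2 probe sets averaged (-0.20, adjusted p = 0.156). Of the factors known to repress junction genes through E-boxes, all named here after their values were seen, SNAI1 was at -0.08 ± 0.10 SE (adjusted p = 0.615). SNAI2, ZEB1, ZEB2 and TWIST1 were not among the genes past the filter. The part of these factors in the differences of desmosome genes was not tested.

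Of 3 tetraspan genes related to PERP and past the filter, EMP1 and EMP3 fell and EMP2 did not pass. A further 1 was measured but under the filter. EMP1 gave 7.21, 7.64 and 7.73 in control and 6.24, 6.39 and 6.12 in knockdown arrays (-1.28 ± 0.13 SE, limma adjusted p = 0.00022). EMP3 gave 6.64, 6.96 and 6.98 against 5.72, 5.77 and 5.75 (-1.11 ± 0.11 SE, adjusted p = 0.000116). EMP2, named after its value was seen, was at 0.18 ± 0.10 SE (adjusted p = 0.256).

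**Figure D4:**
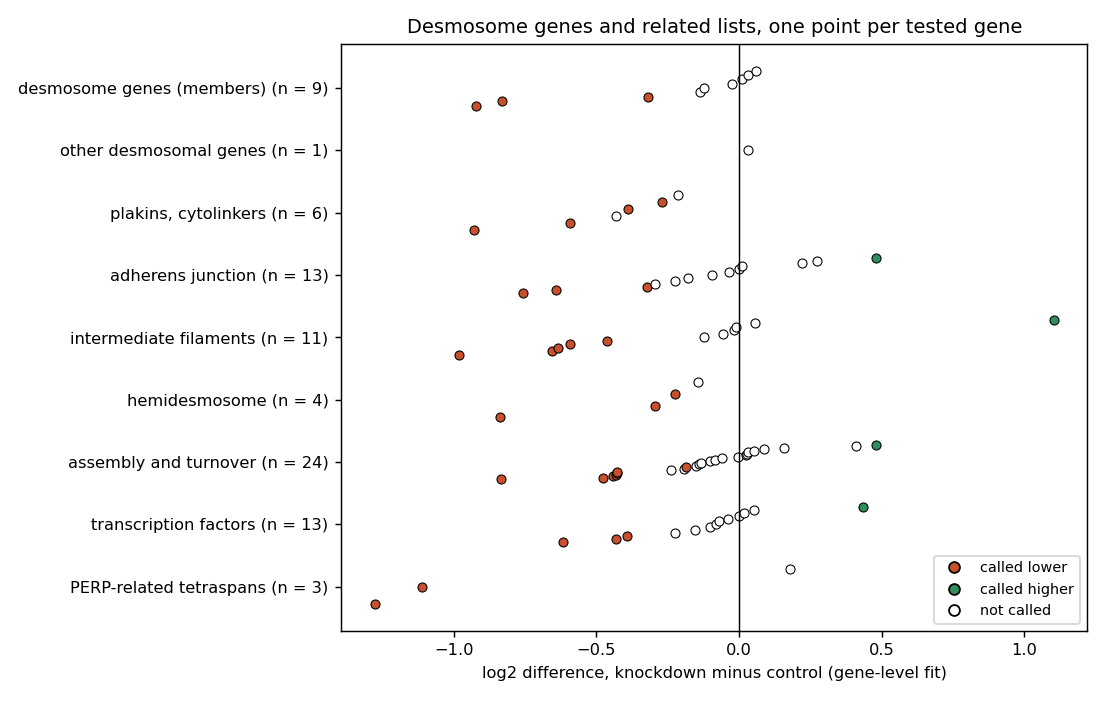
Log2 difference between knockdown and control for every tested gene of the desmosome set and of the 8 related lists, 1 point per gene on its brightest probe set; filled points passed limma's threshold lower (orange) or higher (green), open points did not. Called genes lie on the lower side in most lists, with KRT23 the far point on the higher side and EMP1 and EMP3 the far points on the lower side.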

How the data were processed

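Total RNA (6 ug per array) was labelled with biotin and hybridised to Affymetrix Human Genome U133 Plus arrays, a design read from the header of the probe annotation. The authors deposited 1 log2 signal per probe set and array; their log2 scale was inferred from a range of 1.29 to 13.68. The submitters' processing notes name MAS5 without its role; the summary method, scaling and genome build were not given in the sources used here. Array medians were 4.20 to 4.25, and the values were used without further normalization. The 6 columns were named by sample and grouped by the titles; 0 were unmapped and no 2 arrays were identical.

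Probe sets were named from the platform annotation, updated to RefSeq symbols of GRCh38.p14 through Entrez identifiers: 41091 had 1 gene, 1801 several and 11721 none. Left out were 62 control probe sets and, of the rest, the 40% with the lowest mean over all arrays. Groups were compared with limma 3.58.1 (R 4.3.3; lmFit, eBayes with an intensity trend, two-sided), once per gene on the brightest probe set and once per probe set, with Benjamini-Hochberg adjustment over all features. The fit was tested on simulated data with 50 changed genes of each size. It called 6 of those changed by 0.3 on the log2 scale, 24 by 0.5, 48 by 1 and 50 by 2. Of its 135 calls 7 were false. The simulation held far fewer changed genes than were called here, so these rates need not carry over. A gene that did not pass may still differ by a small amount. With arrays, precision is limited by the 3 replicates in each group.

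The members and lists were chosen with earlier results of these data known. Named were all members and, from each related list, up to 4 called genes of smallest p, or 2 where none was called, beside marker genes, neighbours of the cadherin cluster and genes marked as named after their values were seen; 1 further list is not reported here. Alternatives were 9 settings and the omission of each of 6 arrays; centring on probe sets past the filter was 1 more, chosen after seeing the data.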

Additional observations from a re-analysis of the deposited data

Results flagged for a closer look

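Signals outside the comparisons were higher on all 3 knockdown arrays than on any control array in 4 cases. Control probe sets for 18S ribosomal RNA were higher by 1.29 (3′ part), 0.82 (5′ part) and 0.79 (middle part) on the log2 scale; their part in the differences of desmosome genes was not tested. The dimmer PKP1 probe set 205724_at, under the low-signal filter, gave 3.42, 3.37 and 3.09 in control and 3.49, 3.59 and 3.75 in knockdown arrays, a difference of 0.32, which was 0.22 without control replicate 3. No p-value is attached to it.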

How the results depend on the processing

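All alternatives reuse the arrays by which the desmosome genes were chosen. For these genes they show dependence on processing and give no further support. DSP and DSC2 kept their direction and their call under all 16 alternatives, DSP between -0.86 and -0.79 and DSC2 between -1.0 and -0.83 on the log2 scale. DSG2 did so in the fit over genes, except that it stood at -0.11 without a call when its probe sets were averaged. In the fit over probe sets its brightest probe set missed without any 1 knockdown array. JUP, PKP1, PKP2, PKP3 and PKP4 never passed. PERP lay between -0.19 and -0.087 without 1 array and passed only without knockdown replicate 3. Desmosome probe sets that fell numbered 3 to 5 without 1 array. Without any 1 knockdown array, and with the replicate block below, the fallen probe sets include 231033_at of DSC2. It passed the filter through its control arrays alone, and nothing is read from its call. Over all genes, falls numbered 1082 to 2309 and rises 616 to 1811 without 1 array, the highest of both without control replicate 3. NFIL3 missed the threshold with no intensity trend (-0.26), with arrays centred on the median of probe sets past the filter (-0.23) and without 4 of the arrays in turn (-0.33 to -0.20 over all 6). Genes of the related lists that fell went from 27 to 14 with probe sets averaged and to between 18 and 31 without 1 array. MACF1 at 0.10 and DST at 0.27 turned direction when names ending in _x_at or _s_at were avoided, and PLEC at 0.053 when probe sets were averaged; the cause was not tested. With the replicate number as a replicate block all genes called numbered 3049 in place of 3189, the 3 desmosome genes still fell, and 4 in place of 5 of their probe sets passed; deviations of same-numbered arrays from their group means correlated at 0.02, 0.11 and -0.01 across genes, 2 of 6 arrays correlated best with their own number, and the numbers were not taken as pairs. No probe-level data or detection calls were used, so low signals have no firm zero.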
